A study of Homo sapiens with 12 samples.

Results

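Huh7 is an established human hepatocellular carcinoma cell line, and 4 of the 12 RNA sequencing libraries of the study came from it. The 4 Huh7 libraries formed a complete 2 by 2 design: untreated cells, cells given the mTOR kinase inhibitor AZD8055, cells given the SHP2 inhibitor compound #57, and cells given AZD8055 + compound #57 (the combination), each after 48 h. The genotype was labelled WT in all of them, AZD8055 was used at 100 nM, and compound #57 at 5 µM in the combination. The concentration of compound #57 used alone was not found in the sources used here. The other 8 libraries held the same 4 treatments in Hep3B (48 h) and MHCC97H (24 h), which are also hepatocellular carcinoma lines. The question was whether the change of each gene under the combination was what the changes under the single drugs add up to. For each gene, the departure was the combination change minus the AZD8055 change minus the compound #57 change, each taken against untreated cells on the log2 scale. A departure of 0 is the log2 sum, a departure of 1 is a combination level 2-fold above it, and a departure of -1 is a level 2-fold below it.

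mTOR is the kinase of the complexes mTORC1 and mTORC2, which drive protein synthesis, ribosome production and lipid synthesis when nutrients and growth factors are present. SHP2, the phosphatase encoded by PTPN11, passes signals from receptor tyrosine kinases to RAS and ERK. Inhibition of mTOR is known to relieve a negative feedback on receptor tyrosine kinases, and SHP2 stands between those receptors and the RAS pathway.

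Each condition had 1 library, so no p-value can be given within Huh7, and a difference in culture or library preparation cannot be told apart from a drug effect. The deposited log2 values returned whole reads, and the 4 libraries held between 11627361 reads in the combination and 15968317 reads in untreated cells. Levels are given as scaled reads, that is, reads per 10000000 reads of the library. Each departure has a 95% interval computed from the reads of the 4 libraries, and this interval covers counting error alone. Of the 11548 genes in the table, 8517 (73.8%) had at least 200 reads on average over the 4 Huh7 libraries, and these took 96.7% of all reads. They are called well counted, and they had a median counting error of the departure of 0.11. A gene was called above or below the log2 sum where the departure was at least 1 in size and its interval left out 0. All 14 hepatocyte markers in a fixed list were present, with a summed level between 396920 scaled reads under AZD8055 and 555447 under compound #57. In lists of markers of other cells, 1 of 4 blood markers, 2 of 5 fibroblast markers, 1 of 3 endothelial markers and 2 of 3 bile duct markers were listed. LYZ, the blood marker, had 7512 scaled reads in untreated cells and 523 under the combination. In the same order, the summed levels were 1049 and 1318 (fibroblast), 55.7 and 4.3 (endothelial) and 1608 and 3751 (bile duct).

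For most genes the combination lay near the log2 sum. The departure was within 0.5 of 0 for 7170 of the 8517 well-counted genes (84.2%), with a median of -0.008 and an SD over genes of 0.39. The middle of the distribution ran from -0.23 at the lower quartile to 0.20 at the upper quartile. The counting interval nevertheless left out 0 for 4237 genes (49.7%), so departures larger than counting error were common and mostly small. Called above the sum were 52 genes, which is 0.611% of those well counted. Called below it were 144 genes, which is 1.69%. The split depends on the scale of addition: where scaled reads were added in place of log2 values, 192 genes stood above the sum and 88 below it. The combination itself changed 691 genes at least 2-fold upward and 566 at least 2-fold downward. These counts were 364 and 179 under AZD8055 and 246 and 109 under compound #57.

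**Figure D1:**
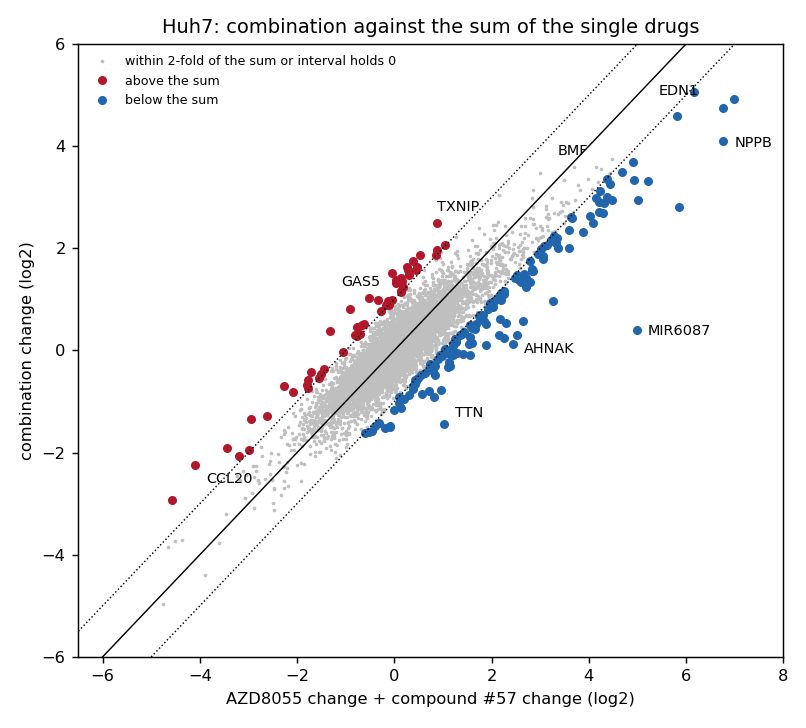
Combination change against the sum of the AZD8055 and compound #57 changes in Huh7, both in log2 against untreated cells, with 1 point per well-counted gene. The solid line is the log2 sum and the dotted lines mark a 2-fold departure. Red points are genes called above the sum and blue points are genes called below it. The blue points gather to the right, where both drugs raised the gene, with NPPB and EDN1 at the far end and MIR6087 farthest below the line.

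The 144 genes below the sum were mostly genes that each drug raised on its own. Both drugs raised 89 of them by at least 0.5 in log2, a pattern held by 475 (5.58%) of the well-counted genes. In these 89 genes the median change was 1.59 under AZD8055, 1.09 under compound #57 and 1.50 under the combination, where the median sum was 2.84. The combination was higher than both single drugs in 24 of the 89, between them in 37 and lower than both in 28. In 3 of the 89 the combination stood at or below the untreated level. The remaining genes below the sum were 24 that neither drug moved by 0.5, 21 moved by AZD8055 alone, 8 moved by compound #57 alone and 2 moved in opposite directions. The single-drug libraries enter both the pattern and the departure, so the share of a pattern among called genes is a description.

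The 52 genes above the sum were spread over more patterns. Neither drug moved 18 of them by 0.5, both drugs lowered 13, AZD8055 alone moved 12, compound #57 alone moved 6, and 3 were moved in opposite directions. In 35 of the 52 the combination was the highest of the 4 libraries, where this held for 29.4% of well-counted genes. The combination level enters the departure, so the call itself favours genes with a high combination, and this share is a description. Just inside the threshold stood WSB1 at 1.005 and MT-RNR2 at 1.009, and just outside it GALT at 0.983 and NPM1 at 0.982. On the other side ASPM and TRRAP were called at -1.008 and -1.005, and VPS13D and TNRC6B missed the threshold at -0.999 and -0.997.

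Long noncoding RNAs that carry small nucleolar RNAs in their introns were among the genes above the sum. SNHG1, such a host gene, had 1196 scaled reads in untreated cells, 772 under AZD8055, 743 under compound #57 and 1549 under the combination. Both single drugs were thus below the untreated level and the combination above it, and the departure was 1.69 (95% counting interval 1.53 to 1.85). GAS5, a host gene named for its accumulation in growth-arrested cells, had 775, 976, 485 and 1534 scaled reads in the same order. Its departure was 1.33 (1.16 to 1.50), and the combination was the highest of the 4 libraries. The 10 well-counted genes with an SNHG name, GAS5 and ZFAS1, a list put together after these values had been seen, all had departures over 0, with a median of 1.22. Of these, 6 were called above the sum, beside 0.611% of well-counted genes, and the median change was -0.13 under AZD8055, -0.55 under compound #57 and 0.63 under the combination. The lowest departure among those that can be named was 0.34, in SNHG6. TAF1D, a subunit of the RNA polymerase I selectivity factor whose introns also hold small nucleolar RNAs, had 496, 506, 339 and 1005 scaled reads and a departure of 1.54. Adjusting the departure for transcript length and GC content left SNHG1 at 1.64, TAF1D at 1.45 and GAS5 at 1.32.

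TXNIP, the thioredoxin-interacting protein that restrains glucose uptake and is a FOXO target, was high in the combination library. It had 291 scaled reads in untreated cells, 463 under AZD8055, 335 under compound #57 and 1641 under the combination, with a departure of 1.62 (1.39 to 1.85). The combination stood far above the other 3 libraries, of which AZD8055 was the highest, at a log2 change of 0.67 against untreated cells. TXNIP lies on chromosome 1 (hg38, 145992435 to 145996579, minus strand). Its RefSeq promoter (GRCh38.p14, chr1:145996530-145996829, minus strand, 250 bases before to 50 after the start) is shown because it holds the forkhead letters that FOXO factors bind. The capitals mark, in order, the NF-Y letters ATTGG, the forkhead letters GTAAACA (the reverse complement of TGTTTAC, first base at -124 from the start) and the NF-Y letters CCAAT.
TXNIP: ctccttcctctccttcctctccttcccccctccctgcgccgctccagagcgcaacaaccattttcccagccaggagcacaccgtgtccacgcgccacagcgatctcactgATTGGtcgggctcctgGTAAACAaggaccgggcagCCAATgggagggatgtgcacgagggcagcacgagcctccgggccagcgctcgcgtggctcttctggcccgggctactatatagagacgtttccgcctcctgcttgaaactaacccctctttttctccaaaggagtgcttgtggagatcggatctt
Of the 37 genes above the sum with a promoter in the RefSeq table, 3 (8.1%) held the forkhead letters, beside 2.4% of the 6998 well-counted genes with a promoter and 3.4% of all 35116 promoters in the table. The other FOXO targets did not share the departure of TXNIP: the 19 well-counted members had a median of -0.26, and TXNIP was the 1 member called above the sum.

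Several genes above the sum were lowered by both drugs, and the combination was not as low as the sum. CCL20, the chemokine that attracts cells bearing CCR6, had 1671 scaled reads in untreated cells, 526 under AZD8055, 310 under compound #57 and 351 under the combination. All 3 treated libraries were far below the untreated one, and the departure of 1.85 (1.61 to 2.08) was the largest above the sum among genes that can be named. DUSP5, a nuclear ERK phosphatase induced by ERK signalling, followed the same course with 2301, 1492, 388 and 550 scaled reads and a departure of 1.13. SMPDL3B, a membrane phosphodiesterase, had 441, 107, 74.5 and 56.8 scaled reads and a departure of 1.64, so here the combination was the lowest of the 4 libraries and still above the sum. XKR8, a phospholipid scramblase active in apoptosis, had 346, 144, 108 and 136 scaled reads. MGLL, the lipase that cleaves monoacylglycerols, had 748, 144, 356 and 197. NR1H4, the bile acid receptor FXR, had 684, 168, 453 and 280 scaled reads and a departure of 1.33, with the combination between the single drugs.

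Other genes above the sum were moved in opposite directions, or were returned toward the untreated level in the combination. LGR5, a receptor for R-spondins and a target of WNT signalling, had 381 scaled reads in untreated cells, 442 under AZD8055, 67.1 under compound #57 and 236 under the combination. The low level under compound #57 was thus partly absent in the combination, with a departure of 1.58. ABLIM3, an actin-binding protein, had 262, 405, 89.2 and 458 scaled reads and a departure of 1.72. NFKBIZ, a nuclear regulator of NF-kB, had 606, 402, 937 and 1576 scaled reads, and SLC22A3, an organic cation transporter, had 240, 159, 350 and 691. In both, the combination was the highest of the 4 libraries although AZD8055 alone was the lowest. SERPINA1, which encodes alpha-1 antitrypsin and is among the most abundant liver transcripts, had 35881, 21946, 34559 and 43890 scaled reads and a departure of 1.05 (1.03 to 1.08). IMPDH2, the enzyme that opens guanine nucleotide synthesis, had 1831, 2050, 1505 and 3410 scaled reads and a departure of 1.02. LENG8 (722, 816, 707 and 1933), AHSA2 (232, 283, 229 and 696), ATHL1 (155, 173, 166 and 484) and GOLGA8B (116, 148, 119 and 390) were nearly level in 3 libraries and high in the combination. In the same order, their departures were -0.942, -0.825, -0.523 and -1.055 in Hep3B and -0.663, -0.351, -0.665 and -0.377 in MHCC97H, opposite to Huh7. GOLGA8B belongs to a family of near-identical copies, and MTND1P23 is a nuclear copy of a mitochondrial gene, so their reads may be shared with other loci.

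**Figure D2:**
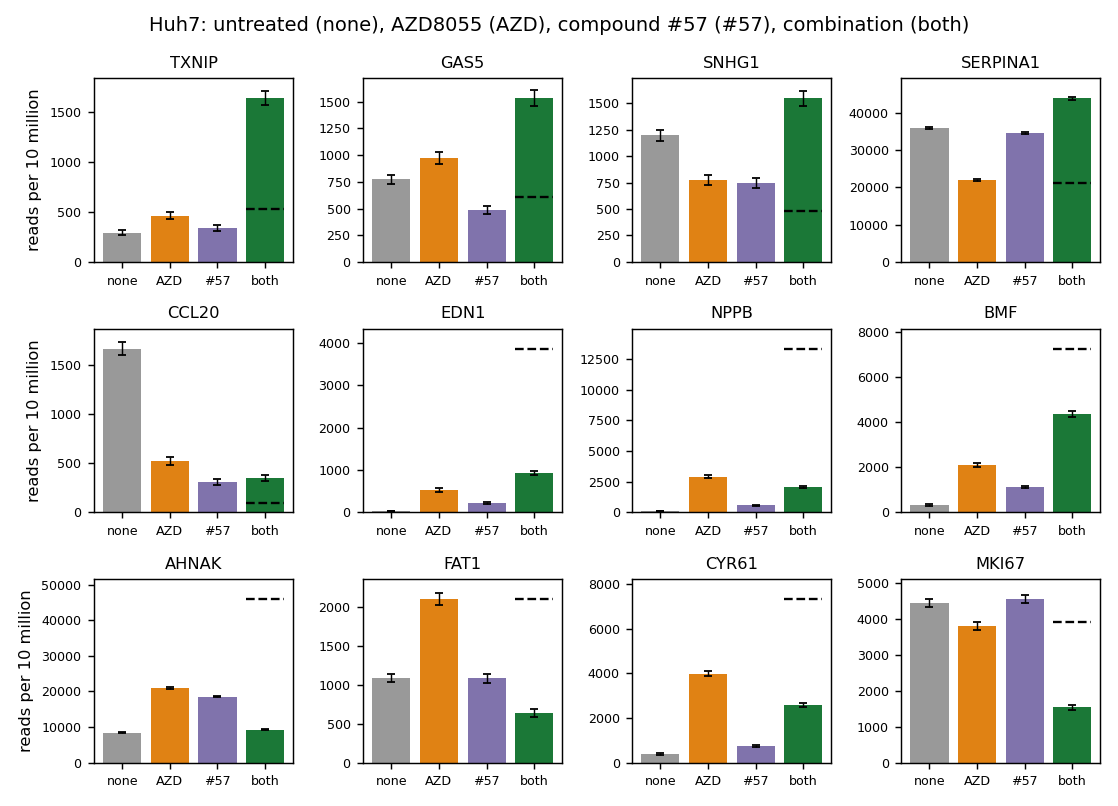
Scaled reads (reads per 10000000 library reads) of 12 genes in the 4 Huh7 libraries: untreated (none), AZD8055 (AZD), compound #57 (#57) and combination (both). Bars start at 0, the error bars are 95% counting intervals of 1 library each, and the dashed line over the combination is the level that the log2 sum gives. In TXNIP, GAS5, SNHG1, SERPINA1 and CCL20 the combination bar exceeds the dashed line, and in the other 7 genes it stays under it.

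Among the genes below the sum, the largest rises under a single drug were in secreted peptides. NPPB, which encodes the natriuretic peptide BNP, had 121 scaled reads in untreated cells, 2920 under AZD8055, 559 under compound #57 and 2090 under the combination. The combination lay between the single drugs, far above untreated cells, and the departure was -2.67 (-2.91 to -2.44). EDN1, which encodes the vasoconstrictor endothelin-1, had 29.4, 531, 220 and 928 scaled reads and a departure of -2.06 (-2.52 to -1.60). Here the combination was higher than either drug, but lower than the product of both folds. On the linear scale, where the scaled reads themselves are added, EDN1 stood above the sum by 0.36. CXCL8, the neutrophil chemokine interleukin-8, had 105, 893, 383 and 1066 scaled reads and a departure of -1.60. NPNT, an integrin ligand of basement membranes, had 162, 1148, 857 and 1634 scaled reads and a departure of -1.89. INHBE, a hepatic activin subunit, differed from these with 201, 262, 274 and 107 scaled reads, the combination being lowest.

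The chemokines CCL20 and CXCL8 thus departed in opposite directions, CCL20 being lowered and CXCL8 raised by each drug. Their promoters (RefSeq, GRCh38.p14, 250 bases before to 50 after the start) are shown for comparison. The CCL20 window is chr2:227813592-227813891, plus strand, with 2 CCAAT matches in capitals. The CXCL8 window is chr4:73740319-73740618, plus strand, with the AP-1 match TGACTCA in capitals, its first base at -137 from the start.
CCL20: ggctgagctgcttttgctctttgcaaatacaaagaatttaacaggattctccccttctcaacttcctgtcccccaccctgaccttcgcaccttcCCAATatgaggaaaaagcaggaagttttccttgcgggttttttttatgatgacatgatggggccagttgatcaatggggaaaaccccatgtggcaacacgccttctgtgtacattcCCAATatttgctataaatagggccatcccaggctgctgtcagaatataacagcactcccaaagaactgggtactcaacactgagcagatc
CXCL8: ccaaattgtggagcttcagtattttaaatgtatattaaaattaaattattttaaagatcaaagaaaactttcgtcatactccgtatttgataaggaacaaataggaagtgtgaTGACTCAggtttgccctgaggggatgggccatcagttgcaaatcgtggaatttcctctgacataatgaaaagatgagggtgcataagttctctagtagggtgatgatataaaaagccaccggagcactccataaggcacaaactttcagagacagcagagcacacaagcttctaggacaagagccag
Of 113 genes below the sum with a promoter, 6 (5.3%) held the AP-1 letters TGANTCA on either strand, beside 3.9% of well-counted genes and 7.7% of all promoters in the table, and 0 of 37 genes above the sum held them. The ETS letters CCGGAAG were in 9.7% of promoters below the sum and 21.6% above it, beside 21.8% of well-counted genes and 10.3% of all promoters. The E-box letters CACGTG were in 9.7% below and 10.8% above, beside 11.1% of well-counted genes and 7.3% of all promoters. The NF-Y letters CCAAT were in 23.9% below and 29.7% above, beside 37.7% of well-counted genes and 34.6% of all promoters. The ATF4 letters TGATGNAA were in 2.7% below and 0 of 37 above, beside 1.6% of well-counted genes and 3.6% of all promoters. The forkhead letters TGTTTAC were in 0.9% of promoters below the sum. The motifs could overlap one another, and with so few promoters these shares are counts of letters, not of sites in use.

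Many of the genes below the sum had long transcripts. The median canonical transcript of the genes below the sum was 9350 bases long, beside 3680 bases for all well-counted genes and 2504 bases for genes above the sum. Transcripts of 8000 bases or longer made up 57.7% of the genes below the sum with an annotated length (82 of 142), beside 10.4% of all well-counted genes. Of the 208 well-counted genes with transcripts of 12000 bases or longer, 50 (24.04%) were below the sum and 1 was above it. Across 8423 genes, Pearson's r between the departure and log2 transcript length was -0.29, a description over genes that share the same 4 libraries. The libraries themselves differed in this respect: transcripts of 8000 bases or longer took 11.15% of reads in untreated cells, 13.53% under AZD8055, 11.75% under compound #57 and 10.49% under the combination. The mitochondrial rRNA gene MT-RNR2 took 0.107%, 0.127%, 0.162% and 0.387% of reads in the same order. The Hep3B combination library went the other way. There, long transcripts took 10.29%, 10.02%, 10.37% and 11.56% of reads, and MT-RNR2 took 0.442%, 0.653%, 0.586% and 0.301%. In MHCC97H long transcripts took 9.96%, 12.24%, 10.44% and 11.17%, and MT-RNR2 took 0.229%, 0.302%, 0.231% and 0.335%. The part of these library differences in the departures was not tested. Adjusting the departure for transcript length and GC content lowered the count below the sum from 144 to 78, of which 70 were among the 144, and left the count above it at 52, of which 38 were among the same 52.

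In the median, the long genes below the sum were raised by the single drugs and near the untreated level in the combination. Their median change was 0.82 under AZD8055, 0.58 under compound #57 and 0.16 under the combination. Single genes differed from this, and both drugs raised 46 of the 82 by at least 0.5 in log2. AHNAK, a very large scaffold protein beneath the plasma membrane, had 8472 scaled reads in untreated cells, 20930 under AZD8055, 18594 under compound #57 and 9295 under the combination. Both single drugs were thus more than 2-fold above untreated cells, while the combination was close to them, with a departure of -2.31 (-2.35 to -2.26). DST, a cytoskeletal linker of the plakin family, repeated this with 1583, 4073, 3876 and 2356 scaled reads and a departure of -2.08. SYNE2, which anchors the nucleus to the cytoskeleton, had 348, 763, 915 and 431 and a departure of -2.22. The atypical cadherins FAT1, FAT3 and FAT4 were all below the sum. FAT1 had 1083, 2096, 1083 and 636 scaled reads and a departure of -1.72, so that the combination was the lowest library. FAT3 had 28.8, 405, 125 and 207 scaled reads and a departure of -3.05 (-3.57 to -2.53). FAT4 had 221, 665, 327 and 273 and a departure of -1.84. HSPG2, the basement membrane proteoglycan perlecan, had 2440, 7701, 2271 and 2285 scaled reads, the rise under AZD8055 being absent in the combination. TTN, which encodes titin, had 604, 648, 1138 and 221 scaled reads and a departure of -2.46.

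Adjustment for length and GC content kept the direction of most of these genes but made the departures smaller. AHNAK went to -1.53, SYNE2 to -1.28, DST to -1.03, FAT1 to -1.12, FAT3 to -2.22 and FAT4 to -1.13. TTN, whose transcript of 109224 bases is the longest in the table, turned to 0.88 under the adjustment. For the short genes the adjustment changed little, with NPPB at -2.72, EDN1 at -2.13 and CXCL8 at -1.79. The genes below the sum with transcripts under 8000 bases numbered 60, and their median change was 1.81 under AZD8055, 1.17 under compound #57 and 1.68 under the combination. Among genes that both drugs raised, the combination was lower than both single drugs in 25 of 46 long genes and in 2 of 42 short ones. It was higher than both in 4 of the 46 long and 20 of the 42 short genes.

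MIR6087, listed under the name of a miRNA hairpin, had the largest departure of all, at -4.58 (-5.06 to -4.11). It had 60.7 scaled reads in untreated cells, 123 under AZD8055, 975 under compound #57 and 80.8 under the combination. The high level was in the compound #57 library alone, and poly(A) libraries do not measure mature miRNAs. KCNQ1OT1, an antisense transcript within KCNQ1, had 150, 373, 290 and 179 scaled reads and a departure of -2.002. Whether strand was used in counting is not given in the sources used here, so its reads cannot be told apart from those of KCNQ1.

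**Figure D3:**
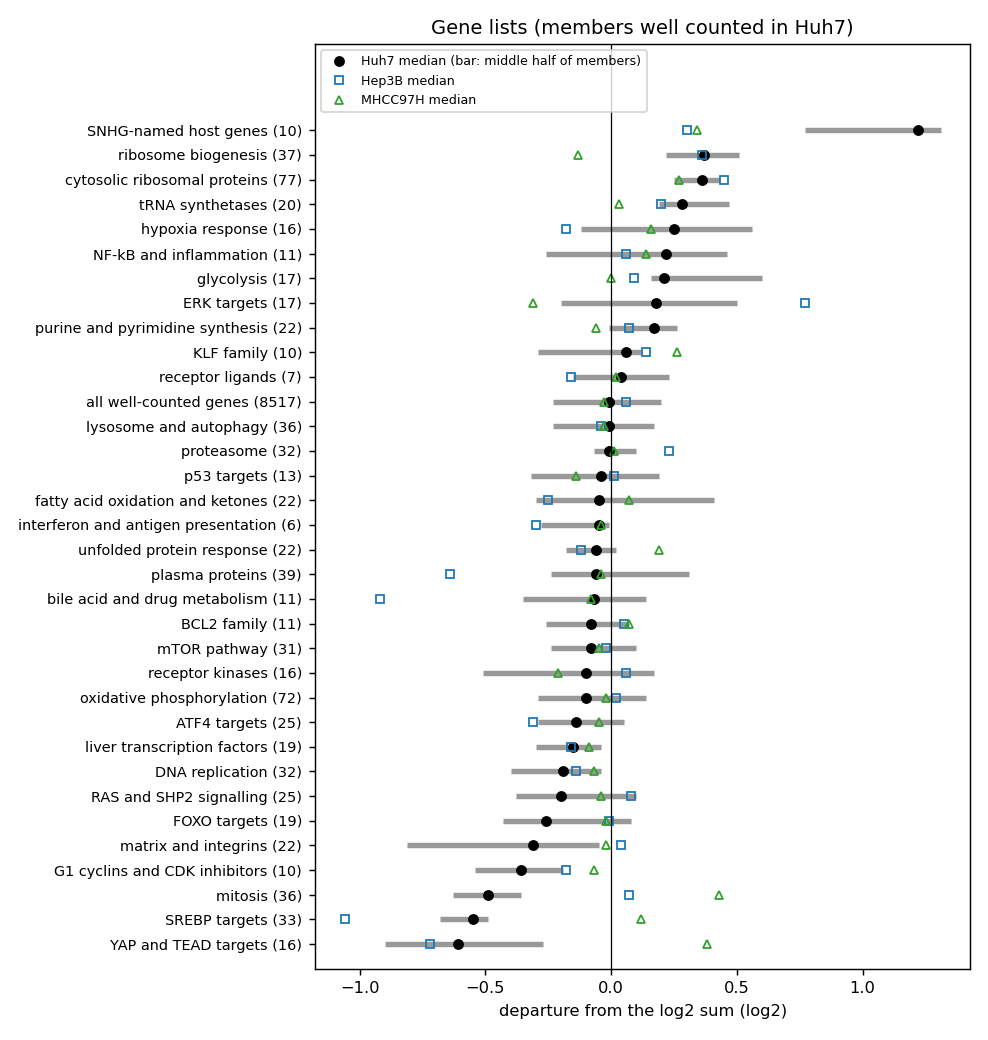
Departure from the log2 sum for the gene lists, with the number of members well counted in Huh7 in brackets. Black points are medians in Huh7 and grey bars span its middle 50% of members, open squares are medians in Hep3B, and open triangles are medians in MHCC97H. The SREBP targets and mitosis genes lie wholly or mostly left of 0 in Huh7, the ribosomal proteins lie right of 0, and the median of all well-counted genes is at -0.01.

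Genes of the translation machinery stood slightly above the sum nearly throughout, without large departures. Of the 77 well-counted cytosolic ribosomal protein genes, 76 had a departure over 0 and none was called, with a median of 0.36 beside -0.01 over all well-counted genes. Their median change was 0.20 under AZD8055, -0.25 under compound #57 and 0.26 under the combination. RPS2 had 7809 scaled reads in untreated cells, 6471 under AZD8055, 5062 under compound #57 and 6978 under the combination. RPL15 had 7945, 9460, 6513 and 12102, with departures of 0.73 and 0.64 for this pair. Ribosomal protein genes have many processed copies in the genome, so their reads are uncertain to that extent. Ribosome biogenesis factors had a median of 0.37, with 34 of 37 over 0. NPM1, the abundant nucleolar chaperone, had 13065, 10879, 8169 and 13438 scaled reads, so that the combination stood at the untreated level. Among tRNA synthetases, which charge tRNAs with amino acids, 20 of 20 departures were over 0, with a median of 0.28. Both drugs lowered this group (medians -0.62 and -0.33), and the combination, at -0.65, was close to AZD8055 alone. Glycolytic genes were lowered by 0.95 and 0.71 in the median, and 15 of 17 had departures over 0. GAPDH, for instance, had 28630, 17028, 16601 and 15768 scaled reads.

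Lipid synthesis genes fell short of the sum throughout. All 33 well-counted targets of SREBP, the transcription factor of sterol and fatty acid synthesis, had departures below 0, with a median of -0.55, and none was called. Their median change was -0.67 under AZD8055, 0.45 under compound #57 and -0.75 under the combination, so that the combination resembled AZD8055 and the rise under compound #57 was not seen on top of it. INSIG1, a sterol sensor and SREBP target, had 2335 scaled reads in untreated cells, 1312 under AZD8055, 2798 under compound #57 and 826 under the combination. FADS1, a fatty acid desaturase, had 7143, 5728, 10083 and 4470. ACACA, acetyl-CoA carboxylase, had 2029, 1441, 2195 and 788, and a departure of -0.98. The combination was the lowest library in these 3 genes. With the adjustment for length and GC content the median of the group was -0.60.

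Proliferation genes were also lower in the combination than the single drugs add up to. All 36 mitosis genes had departures below 0, with a median of -0.49, and 3 were called, beside 1.69% of well-counted genes. The median change of the group was -0.14 under AZD8055, -0.25 under compound #57 and -0.89 under the combination. MKI67, the proliferation antigen Ki-67, had 4439 scaled reads in untreated cells, 3813 under AZD8055, 4552 under compound #57 and 1545 under the combination. The 3 libraries other than the combination were close to one another, and the departure was -1.34 (-1.43 to -1.25). CENPF, a kinetochore protein, had 2738, 3565, 2752 and 1618 scaled reads, and ASPM, a spindle pole protein, had 3196, 3061, 2196 and 1045. All 3 have transcripts over 8000 bases, and after the adjustment they stood at -0.86, -0.79 and -0.66, while the median of the whole group was -0.52. DNA replication genes had a median of -0.19, with 25 of 32 below 0 and none called. CDC6, which loads the replicative helicase, had 1641, 948, 1246 and 455 scaled reads, and UHRF1, which maintains DNA methylation, had 1406, 993, 1137 and 480. CCND1, the G1 cyclin D1, behaved differently with 3935, 9776, 4242 and 5925 scaled reads, a rise under AZD8055 that was smaller in the combination. In a bulk library, fewer cells in a phase of the cycle and less RNA per cell cannot be told apart.

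Targets of YAP and TEAD, the transcriptional end of the Hippo pathway, were higher under each treatment, and the combination stood near AZD8055 alone. The median change of the 16 well-counted members was 1.27 under AZD8055, 0.53 under compound #57 and 1.24 under the combination, and the median departure was -0.61. CYR61, a secreted matricellular protein, had 397 scaled reads in untreated cells, 3987 under AZD8055, 731 under compound #57 and 2602 under the combination, with a departure of -1.49 (-1.65 to -1.34). CRIM1, a transmembrane regulator of BMP ligands, had 698, 3721, 1087 and 2404 scaled reads and a departure of -1.27. PTPN14, a phosphatase that restrains YAP, had 373, 820, 548 and 538 scaled reads and a departure of -1.16. These 3 were the members called, all below the sum, beside 1.69% of well-counted genes. In the matrix and integrin list 5 of 22 members were called below the sum, beside the same 1.69%, with a list median of -0.31. COL1A1, the main chain of collagen I, had 92.1, 888, 194 and 688 scaled reads, SPARC, a collagen-binding glycoprotein, had 428, 1092, 804 and 966, and ITGA1, an integrin subunit that binds collagen, had 2125, 3415, 2849 and 2064. The laminin chains LAMA3 (42.6, 75.6, 364 and 217) and LAMA5 (1898, 4918, 2970 and 3630) were the other called members. PTPN14, ITGA1, LAMA3 and LAMA5 have transcripts over 8000 bases. Of all well-counted genes with transcripts of 8000 to 12000 bases 4.8% were below the sum, and of those with longer ones 24.04%. After the adjustment for length and GC content the list medians were -0.61 for YAP and TEAD targets and -0.33 for matrix and integrins.

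The drugs' own pathways showed smaller departures. MTOR itself had 1513 scaled reads in untreated cells, 1259 under AZD8055, 1389 under compound #57 and 892 under the combination, a departure of -0.37. PTPN11 had 4412, 5057, 4556 and 4132, a departure of -0.34. No member was called among 31 mTOR pathway genes (median -0.08) or 25 genes of RAS and SHP2 signalling (median -0.20). ERK targets were lowered by compound #57 (median -1.37), with medians of -0.92 for the combination and -0.96 for the sum. The median departure of the 17 well-counted members was 0.18, with 10 over 0. It was 0.77 in Hep3B and -0.31 in MHCC97H. In Huh7 DUSP5 was called above the sum and PHLDA1 below it. PHLDA1, a regulator of cell survival, had 714, 1162, 1949 and 1490 scaled reads and was thus raised by compound #57. Among 16 receptor tyrosine kinases the median departure was -0.10 and none was called. EGFR, the epidermal growth factor receptor, had 3513 scaled reads in untreated cells, 4710 under AZD8055, 5088 under compound #57 and 3511 under the combination. The combination thus stood at the untreated level, with a departure of -0.96 (-1.03 to -0.88). IGF1R, the IGF receptor, had 284, 562, 261 and 280 scaled reads and a departure of -0.88. FGFR1, a fibroblast growth factor receptor, went the other way with 1033, 704, 471 and 599 scaled reads and a departure of 0.90. After the adjustment for length and GC content EGFR stood at -0.63 and IGF1R at -0.45.

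Among regulators of apoptosis, BMF, which binds and neutralizes BCL2 proteins, was raised by every treatment. It had 326 scaled reads in untreated cells, 2098 under AZD8055, 1132 under compound #57 and 4380 under the combination. The combination was the highest library, and the departure was -0.73 (-0.89 to -0.57), so its level was under what the folds multiply to. Where scaled reads were added in place of log2 values, BMF stood above the sum, by 0.59. BOK had 281, 978, 488 and 1367 scaled reads and a departure of -0.32, or 0.20 where scaled reads were added, and BCL2L11, which encodes BIM, had 565, 1003, 658 and 815 and a departure of -0.52. No member of the family was called, with a median of -0.08. IRS2, an insulin receptor adaptor under FOXO control, had 68.9, 730, 86.3 and 539 scaled reads and a departure of -0.76.

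Liver genes departed in both directions. The 39 plasma protein genes had a median departure of -0.06, with SERPINA1 called above the sum and APOC3 and TTR below it. APOC3, an apolipoprotein of triglyceride-rich particles, had 111 scaled reads in untreated cells, 81.4 under AZD8055, 625 under compound #57 and 202 under the combination. TTR, the thyroxine carrier transthyretin, had 2478, 1769, 2427 and 821 scaled reads and a departure of -1.08. CPS1, the first enzyme of the urea cycle, had 293, 101, 798 and 103 scaled reads, the combination matching AZD8055, and a departure of -1.42. ONECUT2, a hepatic transcription factor, had 1210, 2598, 2022 and 1810 and a departure of -1.26. The lists for the unfolded protein response (-0.06), ATF4 targets (-0.14), oxidative phosphorylation (-0.10), the proteasome (-0.01), lysosome and autophagy (-0.01), bile acid and drug metabolism (-0.07), fatty acid oxidation (-0.05), interferon response (-0.05), p53 targets (-0.04), receptor ligands (0.04) and the KLF family (0.06) had medians near 0 and no called member. The hypoxia list (0.25) had ADM called above the sum, purine and pyrimidine synthesis (0.17) had IMPDH2, and G1 cyclins and CDK inhibitors (-0.36) had none. The liver transcription factor list (-0.15) had NR1H4 above and ONECUT2 below, and the NF-kB list (0.22) had CCL20 above and CXCL8 below.

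The same departure was computed in Hep3B and MHCC97H, whose libraries had no part in choosing the Huh7 genes. In Hep3B, 0.533% of 8638 well-counted genes were above the sum and 2.56% below it, and in MHCC97H 0.196% of 8182 were above and 0.257% below. Of the genes below the sum in Huh7, 122 were well counted in Hep3B, where 81 (66.4%) had a departure below 0 beside 42.7% of all genes, and 14 were called below the sum. In MHCC97H the direction was shared by 63 of 96 (65.6%), beside 55.6% of all genes, and 3 were called. For the genes above the sum the direction was shared by 15 of 43 in Hep3B (34.9%, beside 57.3% of all genes) and 16 of 41 in MHCC97H (39.0%, beside 44.4%). Of these, 3 were called above the sum and 7 below it in Hep3B, and 1 was called each way in MHCC97H. The genes below the sum in Huh7 held 1 called above it in each of the other lines. In all 3 lines, the direction was the same for 30 of 88 genes below the sum (34.1%) and 9 of 36 above it. Of all well-counted genes with a departure in that direction in Huh7, this was so for 25.4% of those below and 33.8% of those above.

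In the other lines, long and short genes below the sum in Huh7 gave different counts. Of the short genes, under 8000 bases, 44 of 46 (95.7%) had a departure below 0 in Hep3B, beside 43.9% of all short genes there, with a median of -0.67. In MHCC97H this held for 10 of 34 (29.4%), beside 3421 of all 6457 short genes, with a median of 0.23. Of the long genes, 36 of 75 (48.0%) were below 0 in Hep3B, beside 32.1% of all long genes, with a median of 0.02. In MHCC97H 52 of 61 long genes (85.2%) were below 0, beside 77.3% of all long genes, with a median of -0.42. CYR61, a short gene, had a departure of -2.28 in Hep3B and 0.56 in MHCC97H. CXCL8 had -1.47 in Hep3B and was not well counted in MHCC97H. The long FAT1 had -0.04 and -0.94. The split at 8000 bases was chosen after the lengths of the Huh7 genes had been seen, and the difference between the lines was not tested. MHCC97H also differs from the other lines in its exposure time, so line and time cannot be told apart.

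**Figure D4:**
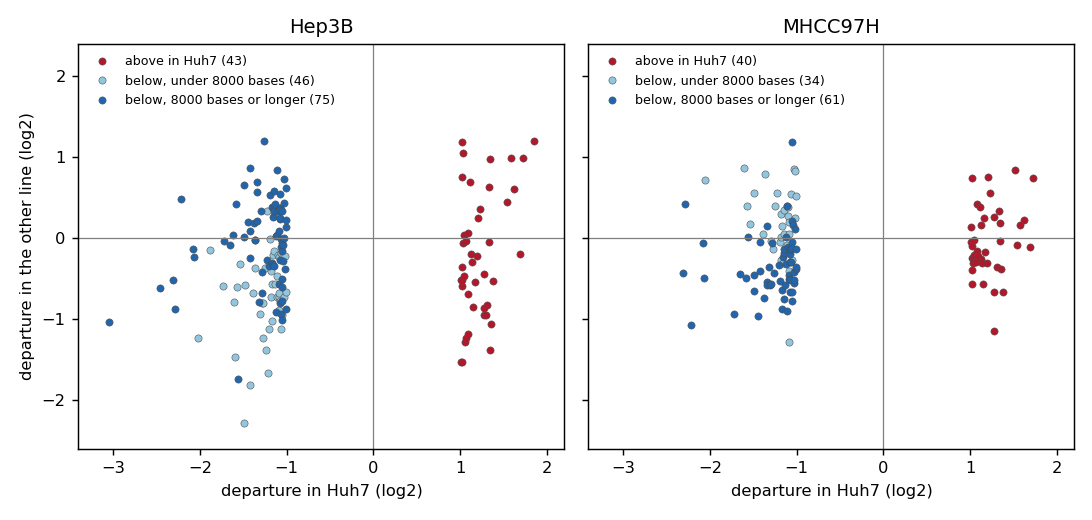
Departure from the log2 sum in Hep3B (left) and MHCC97H (right) against that in Huh7 for genes called in Huh7 and well counted in the other line, with the number of genes in brackets; 1 gene above the sum whose symbol is duplicated in the table is not drawn in MHCC97H. Red points are above the sum in Huh7, light blue points are below it with transcripts under 8000 bases and dark blue points are below it with longer transcripts. In Hep3B 44 of the 46 light blue points lie under 0, and in MHCC97H 10 of 34.

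For the gene lists, the SREBP targets had a median departure of -1.06 in Hep3B and 0.12 in MHCC97H, beside -0.55 in Huh7. Cytosolic ribosomal proteins were above 0 in all 3 lines, with medians of 0.45 and 0.27 in Hep3B and MHCC97H. The SNHG-named hosts had medians of 0.30 and 0.34 there, beside 1.22 in Huh7. Among them SNHG1 stood at -0.19 in Hep3B and -0.11 in MHCC97H, and GAS5 at 0.63 and 0.34.

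A test over all 3 lines asked whether the mean departure of a gene over the lines differed from 0. It does not ask whether the lines share a direction. The interaction contrast of limma, with cell line as a block and 12 libraries, called 0 of 11548 genes higher (0.0%) and 0 lower (0.0%) at a Benjamini-Hochberg adjusted p under 0.05. At an unadjusted p under 0.05 there were 178 genes, 113 higher and 65 lower. Voom, the same model with precision weights on the whole reads, called 0 and had 217. Both counts are a smaller share of the 11548 genes than the 0.05 that this threshold lets through where no gene departs. MIR6087 had an interaction of -2.75 ± 0.73 (SE), FAT1 -0.90 ± 0.27 and BMF -0.68 ± 0.21, each with an adjusted limma p of 1. BMF was below the log2 sum in all 3 lines, at -0.73 in Huh7, -0.47 in Hep3B and -0.85 in MHCC97H. TXNIP had an interaction of 0.82 ± 1.07, an error larger than the estimate. These errors pool how the lines differ in their response to every treatment, so they are not the spread of the departures. The departure of TXNIP was above 0 in each line, at 1.62 in Huh7, 0.605 in Hep3B and 0.225 in MHCC97H. NPPB averaged 0.5 reads in MHCC97H and TTR 1.25, so the contrast over all 3 lines says little of these genes.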

How the data were processed

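The authors prepared poly(A)-selected TruSeq libraries, aligned them to hg38 and deposited 1 table of log2 values per gene and library. Aligner, counting and normalization are not given in the sources used here. The deposited log2 values equalled log2(reads × 10000000 / library total + 1) + 0.001, which returned whole reads and library totals. Departures used log2(scaled reads + 1). Their counting error was the square root of the summed 1/(reads + 0.5) over the 4 libraries, divided by ln 2. Each p-value of the limma 3.58.1 test (R 4.3.3) sets the mean departure of the 3 lines against a residual error. That error pools how the cell lines differ in their response to all treatments, not in the departure alone. Lengths and GC content came from the canonical transcripts of GENCODE 44, and promoters from RefSeq, with 6998 well-counted genes matched. Genes were named by a rule: the 15 above and 15 below with the interval bound farthest from 0, called list members, the 3 largest departures of each pattern, both drug targets, and up to 4 members of lists without a call. Examples at the threshold, further SNHG-named hosts and genes in the final test were added after their values were seen. The members and lists were chosen with earlier results of these data known. Symbols turned into dates (18) or duplicated were counted but not named. Intervals were tested on simulated counts with counting error alone, as the intervals assume, and 94.8% held the true value. Such a simulation says nothing of differences in culture or library preparation.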

Additional observations from a re-analysis of the deposited data

Results flagged for a closer look

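Named genes called in Huh7 were looked at again where the departure had the opposite sign in another line. There it had to be at least 1 in size, on at least 200 reads, with an interval that left out 0. Gene lists were included where both medians passed a floor in size. Smaller opposite departures, such as -0.942 for LENG8 in Hep3B, are thus not listed here. Each line has 1 library per condition, so the difference between lines was not tested. NFKBIZ stood at 1.34 in Huh7 and -1.38 in Hep3B. SERPINA1 stood at 1.05 in Huh7 and -1.28 in Hep3B, and GOLGA8B, whose reads may be shared with near-identical copies, at 1.36 and -1.05. ONECUT2 went the other way, with -1.26 in Huh7 and 1.20 in Hep3B. The mitosis genes had a median of -0.49 in Huh7 and 0.43 in MHCC97H, and the YAP and TEAD targets had -0.61 in Huh7 and 0.38 in MHCC97H. MHCC97H was treated for 24 h and the other lines for 48 h. The combination libraries of Hep3B and Huh7 also differed in their shares of long transcripts and MT-RNR2. The part of this in the opposite signs was not tested.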

How the results depend on the processing

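The counts of 52 genes above and 144 below the log2 sum stayed within 1.5 times of these values with 10 added before the log, a minimum of 100 reads, centring on the median and median-of-ratios size factors. A minimum of 500 reads gave 29 above, and no minimum gave 167 above and 240 below. Additivity on the linear scale turned the split around, with 192 above and 88 below, of which 39 and 56 were among the genes called on the log2 scale. Intervals wholly past 2-fold left 19 and 67. Adjustment for GC content and length gave 78 below, and transcripts of 1000 to 4000 bases, an alternative chosen after seeing the data, gave 31 below and 36 above. A combination beyond both single drugs by at least 2-fold was seen for 59 genes upward and 46 downward, of which 16 and 12 were among the called genes. The interaction contrast gave 0 calls under every alternative run, including without each line. Of 33 list medians, 15 moved by over 0.1 on the linear scale and 14 in transcripts of 1000 to 4000 bases. Among medians over 0.1 in size before and after, the sign changed for ERK targets on the linear scale (-0.27). It also changed for RAS and SHP2 signalling in transcripts of 1000 to 4000 bases (0.14). The NF-kB list changed sign at 500 reads (-0.12) and with no minimum (-0.14). Medians nearer 0 could also change sign, such as that of the mTOR pathway, from -0.08 to 0.07 with the adjustment. Of 143 named genes with a linear sum above 0, 56 moved beyond their counting interval and 6 changed sign: EDN1 (0.36), which was called, and ATF3 (0.21), KLF7 (0.23), BOK (0.20), ABCC3 (0.10) and BMF (0.59), which were not. With the adjustment 43 of 151 moved and 2 changed sign, TTN (0.88) and KLF12 (0.03). The cause of these changes was not tested. No paired analysis was possible within Huh7 because each group holds 1 library, and across lines the cell line was the block. The single library per condition limits every value within Huh7.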
